A study of Mus musculus with 16 samples.

Results

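The genes described here encode the parts and partners of the proteasome and the E2 enzymes that conjugate ubiquitin. They were chosen by symbol alone: every probe with 1 gene symbol that begins with Psma, Psmb, Psmc, Psmd, Psme, Psmf, Psmg or Ube2. This gave 68 genes of 9669 named on the array, measured by 84 of 20205 probes. The proteasome symbols number 43 genes on 49 probes and the E2 symbols 25 genes on 35 probes. A probe was tested if each mouse had a value for it on at least 3 of its 4 arrays, which left 39 proteasome genes on 44 probes and 24 E2 genes on 32 probes, of 8005 named genes in all. A few symbols share only the prefix. Psmc3ip is a meiotic recombination factor, Psme3ip1 a partner of Psme3, and Ube2d-ps a pseudogene, so that 37 proteasome genes and 23 E2 genes remain as genes proper.

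The RNA was from 1 right kidney each of W1 to W5, male wild-type littermates on a mixed C57BL/6 and 129Sv background that were killed at an age of 88 ± 2 days, during the morning hours from 8 to 10. Each of W1 to W4 was set against W5 on 4 two-colour arrays, 2 with the mouse in channel 1 and 2 with W5 there. All 5 animals are untreated, and the design asks how far transcript levels vary between normal kidneys. The arrays of a mouse repeat the same 2 extracts, so every test is about these extracts and cannot stand for mice in general.

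Values are log2 ratios of a mouse against W5, with the sign turned on the 8 arrays that had W5 in channel 1. Which channel is the numerator is not given in the sources used here, so positive and negative mark 2 sides of W5 and neither can be read as higher expression. A ratio carries no level: whether the extracts hold the defining markers of kidney cannot be read from it, and genes cannot be ranked by abundance. In a bulk extract, fewer cells of a type and less RNA per cell cannot be told apart. The range of a gene is its highest minus its lowest value among the 5 kidneys, where W5 counts as 0, and SE is the standard error of a fitted mouse value over its 4 arrays. Arrays had values for 80.2% to 91.1% of the probes, and residual SDs per array ran from 0.153 to 0.231.

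Ubiquitin is passed from an activating E1 enzyme to an E2 enzyme and then, with the help of a ligase, to a substrate protein. Chains of ubiquitin mark many proteins for the 26S proteasome, a barrel-shaped protease (the 20S core) with a regulatory cap (the 19S particle) on its ends. The alpha rings of the core gate the entry, and its beta rings hold the active sites. The cap binds ubiquitin chains, removes them and unfolds the substrate with a ring of ATPases. Interferon gamma induces alternative catalytic subunits that replace the constitutive ones and favour peptides for presentation on major histocompatibility complex (MHC) class I molecules. The transcription factor Nfe2l1 binds antioxidant response elements and raises proteasome gene expression when the proteasome is inhibited.

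Promoters were available from RefSeq (GRCm38.p6) for 32 of the 37 proteasome genes proper and 20 of the 23 E2 genes, each running from 250 bases before the start to 50 after it. The promoters of 4 genes are shown. Psmc1 is the gene with the single probe past the threshold, and Psmb5 and Psmb8 are the constitutive and the inducible form of 1 active site. Psmc4, an ATPase of the same ring as Psmc1, took the place of Psmc5 after the motif matches had been seen, because it holds one of the motifs searched. Capitals mark a CCAAT box, the core of an antioxidant response element (TGACNNNGC) or a site of nuclear respiratory factor 1, an activator of many widely expressed genes, all searched on both strands.
Psmc1, chr12:100109952-100110251, plus strand: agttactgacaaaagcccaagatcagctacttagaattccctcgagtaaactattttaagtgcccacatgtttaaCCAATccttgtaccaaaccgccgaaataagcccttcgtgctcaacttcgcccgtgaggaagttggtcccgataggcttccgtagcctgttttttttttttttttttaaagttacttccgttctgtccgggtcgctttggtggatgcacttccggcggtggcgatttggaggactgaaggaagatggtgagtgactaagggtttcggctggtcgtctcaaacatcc
Psmc4, chr7:28050043-28050342, minus strand: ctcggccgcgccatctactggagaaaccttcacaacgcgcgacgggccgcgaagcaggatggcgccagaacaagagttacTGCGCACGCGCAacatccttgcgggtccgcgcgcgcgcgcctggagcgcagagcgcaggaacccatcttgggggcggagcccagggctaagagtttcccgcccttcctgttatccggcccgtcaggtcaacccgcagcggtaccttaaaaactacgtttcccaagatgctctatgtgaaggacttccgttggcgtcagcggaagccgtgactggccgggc
Psmb5, chr14:54617946-54618245, minus strand: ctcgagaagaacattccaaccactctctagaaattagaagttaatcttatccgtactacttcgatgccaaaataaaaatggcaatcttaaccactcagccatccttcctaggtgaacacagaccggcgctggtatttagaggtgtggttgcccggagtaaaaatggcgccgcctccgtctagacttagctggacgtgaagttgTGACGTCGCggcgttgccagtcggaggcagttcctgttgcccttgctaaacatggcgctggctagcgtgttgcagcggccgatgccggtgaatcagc
Psmb8, chr17:34197945-34198244, plus strand: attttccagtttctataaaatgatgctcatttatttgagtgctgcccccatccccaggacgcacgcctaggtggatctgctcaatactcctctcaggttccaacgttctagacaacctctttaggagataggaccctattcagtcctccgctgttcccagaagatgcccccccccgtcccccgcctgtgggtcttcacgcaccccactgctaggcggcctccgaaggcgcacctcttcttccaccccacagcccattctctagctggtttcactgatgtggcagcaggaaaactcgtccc
Psmc1 has 1 CCAAT box, Psmc4 has 1 nuclear respiratory factor 1 site, Psmb5 has 1 antioxidant response element core and Psmb8 has 0 of the 3 motifs. The nuclear respiratory factor 1 site stood in 8.57% of 35 proteasome promoters (Psma2, Psma4 and Psmc4), in 3.7% of 27 E2 promoters and in 1.27% of all 32851 promoters of this length. That consensus replaced a looser form, without the outermost bases and with any base at the variable position, after the looser form's matches had been seen. The looser form stood in 17.1% of proteasome promoters (those 3 genes, Psmc5, Psmd14 and Psmg1), 7.41% of E2 promoters and 4.6% of all. TGACNNNGC stood in 8.57% of proteasome promoters (Psmb5, Psmb6 and Psmc6), 14.8% of E2 promoters and 12.4% of all. CCAAT stood in 31.4% of proteasome promoters, 18.5% of E2 promoters and 37.4% of all. A match of letters is a description of the window and not a measured binding site.

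No gene of either group passed a test among the 5 kidneys on the probe chosen for it. Limma's 5-kidney F test called 0 of 39 proteasome genes and 0 of 24 E2 genes at an adjusted p under 0.05, where 4.2% of all 8005 named genes were called. At an unadjusted p under 0.05 the counts were 1 of 39 (Psme3ip1, no subunit) and 1 of 24 (Ube2d3), where the share of all named genes was 18.2%. Among W1 to W4 alone, where W5 cancels, limma called 0 and 0 (background 0.824%), with 0 and 2 at an unadjusted p under 0.05 (background 11.4%). With W5 set against the means of its 4 littermates it called 0 and 0 (background 0.325%), with 2 and 0 unadjusted (background 12.9%). In none of the 10 pairs of kidneys was a gene of either group called on its chosen probe, where 0.937%, 2.49%, 0.575% and 2.32% of all named genes were called for W1, W2, W3 and W4 against W5. For the other 6 pairs, those among W1 to W4, the background was 0.212% to 0.337%.

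The proteasome genes lay close together across kidneys. Their median range was 0.18 in log2, or 1.13-fold, the E2 genes' was 0.19, or 1.14-fold, and that of all named genes was 0.23, or 1.18-fold. No proteasome gene and 1 E2 gene, Ube2g2, had a range over 1.5-fold, as did 3.42% of all named genes. Their residual SDs on the log2 scale were also a little smaller, with medians of 0.166 for proteasome genes, 0.170 for E2 genes and 0.183 for all. The part of this smaller error in the smaller range was not tested. A range is the distance between extremes, so array noise alone gives it a positive value.

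**Figure D1:**
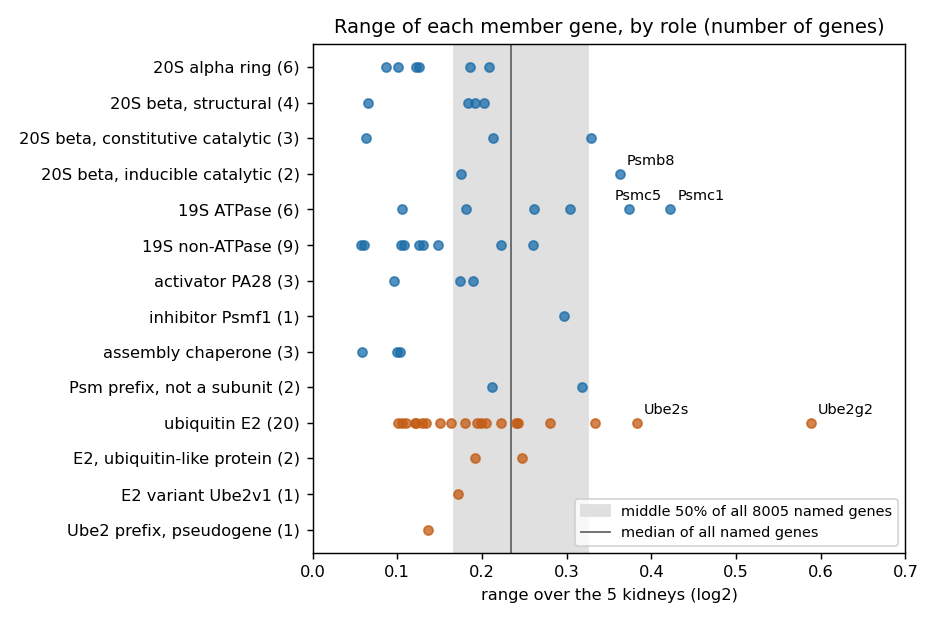
Each point is the range of 1 gene over the 5 kidneys (x axis, log2), in rows by role, with proteasome symbols in blue and E2 symbols in orange. Most points lie left of the median of all 8005 named genes (0.23), and Ube2g2 lies farthest right at 0.59.

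How much difference the arrays leave room for was read from 95% intervals of the 10 pair differences. For 39 of 39 proteasome genes and 23 of 24 E2 genes every such interval lay within 2-fold, as for 96.8% of all named genes. Within 1.5-fold lay all intervals of 35 of 39 proteasome genes (89.7%), 20 of 24 E2 genes (83.3%) and 65.8% of all named genes. The 4 proteasome genes with room beyond 1.5-fold were Psmc1, Psmc4, Psmc5 and Psmb8. The E2 genes were Ube2c, Ube2g2, Ube2s and Ube2u. These bounds hold for these 5 extracts, one gene at a time, and are not adjusted over genes.

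Ordered by role, the 6 alpha ring genes, which form the gated outer rings of the core, had ranges of 0.09 (Psma5) to 0.21 (Psma4). From W1 to W4, Psma6 had values of 0.15, 0.01, 0.02 and 0.19 (SE 0.08) and Psma7 of 0.00, -0.09, 0.01 and 0.01 (SE 0.09). Of the non-catalytic beta subunits, Psmb1 had a range of 0.07, Psmb4 0.18, Psmb2 0.19 and Psmb3 0.20. Psmb2 lay on the positive side in 4 of 4 mice, with a mean of 0.11 ± 0.06 (SD, n = 4 mice). It did not pass the test of W5 against its littermates (limma, adjusted p = 0.366). The medians of the 15 core genes were 0.00, -0.03, 0.08 and 0.01 from W1 to W4.

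The catalytic beta subunits come in constitutive and inducible forms. Psmb5, which carries the chymotrypsin-like site, had a range of 0.33, the widest of the core after that of Psmb8. Its arrays read -0.31, -0.14, -0.04 and -0.36 in W2, and 0.07, 0.07, 0.10 and 0.23 in W3, with -0.01, -0.38, 0.04 and -0.03 in W1 and 0.02, -0.17, 0.00 and 0.15 in W4. All 4 W2 arrays lay on the negative side and all 4 W3 arrays on the positive side, without overlap. The fitted values of W1 and W4 lay between, but array 2 of W1 read below every W2 array and array 4 of W4 lay among those of W3. The difference of W2 minus W3 was -0.33 ± 0.12 (SE), with a 95% interval of -0.57 to -0.09, and was not called (limma, adjusted p = 0.410).

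Psmb8, the inducible replacement of Psmb5, had arrays at -0.28, -0.25, -0.23 and -0.24 in W1. In W4 they spread over -0.43, 0.15, 0.07 and 0.66. The 4 arrays of W1 lay together on the negative side, while those of W4 spanned both sides and enclosed them. Fitted values from W1 to W4 were -0.25, -0.06, -0.06 and 0.11 (SE 0.10), a range of 0.36 (limma, adjusted p = 0.441). Psmb10, which replaces Psmb7 at the trypsin-like site, lay at -0.14, -0.10, -0.07 and 0.04 in W1 to W4, and Psmb7 at 0.03, -0.03, -0.02 and 0.02. Psmb6, the caspase-like subunit, had a range of 0.21 and single arrays from -0.46 to 0.33. No difference among kidneys was called for Psmb5, Psmb6, Psmb7, Psmb8 or Psmb10. Psmb9, the inducible counterpart of Psmb6, was not tested as a gene. Its only probe is shared with Tap1 and is described at the end.

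The activator PA28 opens the core without ATP. Its alpha and beta subunits, Psme1 and Psme2, respond to interferon gamma, and Psme3 forms a nuclear version. Psme2 had values of -0.13, -0.16, -0.02 and 0.03 from W1 to W4 (SE 0.07), a range of 0.19 (adjusted p = 0.418). Psme1 had a range of 0.10 and Psme3 one of 0.17. Of 9 measured interferon response and MHC class I genes, Rsad2 and Tap1 were called in the 5-kidney test, where the background was 4.2%. Rsad2 lay at -0.06, 0.40, -0.09 and 0.47 in W1 to W4 and Tap1 at 0.42, 0.50, 0.50 and -0.17. Psmb8, Psmb10 and Psme2, none of them called, had values of opposite sign to Tap1 in all 4 mice, and none shared the order of Rsad2. The SE of Tap1 was 0.15, near the size of its W4 value. Psmb8 in W2 and W3, and Psmb10 and Psme2 in W3 and W4, had values smaller than their SE, so those signs lay within the error. Of the 7 genes of that list that were not called, Mx2, an interferon-induced antiviral protein, lay at -0.10, -0.07, -0.02 and 0.17. These are the signs and the order of Psmb8 and Psmb10. SEs were 0.11 for Mx2, 0.10 for Psmb8 and 0.09 for Psmb10. The order of W1, W2 and W3 thus lay within the error of Mx2 and Psmb10, and that of W2 and W3 within the error of Psmb8. The Mx2 values of W1 to W3 and the Psmb10 value of W4 were each smaller than their SE. B2m, the light chain of MHC class I, lay at -0.07, -0.03, -0.18 and 0.05, with the same signs in another order. Igtp, an interferon-induced GTPase, was farthest from W5 in W1, at -0.25, as Psmb8 was. The remaining 4, Ifit3, Irf1, Oas1a and Stat2, had ranges of 0.20, 0.29, 0.47 and 0.04 and did not share those signs. Of 13 leukocyte markers 1 was called on its chosen probe, S100a8, with a range of 0.65 (background 4.2%). Lyz2 was called on its second probe (range 0.49, limma, adjusted p = 0.0117) and not on its chosen one (range 0.55, adjusted p = 0.127). W3 was the farthest kidney on both, at 0.43 on the chosen probe. It was also the farthest for S100a8, at 0.19, and for 2 uncalled markers on their chosen probes. These lay on opposite sides of W5, Cd3d at 0.24 and Ptprc at -0.31. The other markers had another kidney farthest on their chosen probes. The part of leukocytes in these values was not tested.

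**Figure D2:**
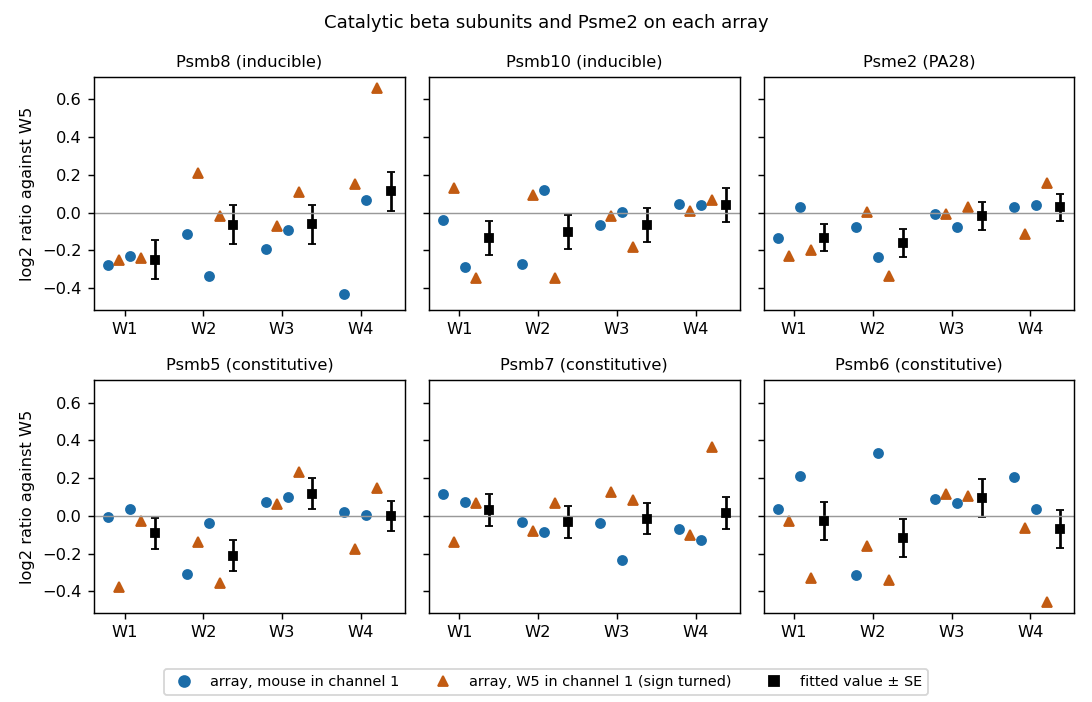
Log2 ratios against W5 (y axis) on each array of W1 to W4 (x axis) for inducible subunits and Psme2 above and constitutive catalytic subunits below. Circles are arrays with the mouse in channel 1, triangles arrays with W5 there, and black squares the fitted value ± SE. The 4 Psmb8 arrays of W1 lie together between -0.28 and -0.23, while those of W4 span -0.43 to 0.66.

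In the cap, the 6 ATPase genes had a median range of 0.28, against 0.13 for the 9 non-ATPase or cap-associated genes and 0.23 for all named genes. Median residual SDs were 0.180, 0.141 and 0.183 in the same order, and the part of this error in the ranges was not tested. On chosen probes, 0 of the 15 cap genes had an unadjusted p under 0.05 in limma's 5-kidney test, where 18.2% of all named genes did. The ATPases unfold substrates and drive them into the core. Psmc5 lay at -0.26 ± 0.09 (SE) in W2, against 0.02, 0.11 and 0.01 in W1, W3 and W4. Its arrays read -0.29, -0.06, -0.28 and -0.41 in W2, and 0.25, 0.05, 0.00 and 0.16 in W3. The arrays of W2 were all below 0 and did not overlap those of W3, but those of W1 (-0.23 to 0.26) and W4 (-0.25 to 0.40) crossed both. Neither W2 minus W5 (limma, adjusted p = 0.190) nor W2 minus W3, at -0.37 ± 0.13 (adjusted p = 0.424), was called. Psmc2 lay at -0.16 in W2 against 0.10, 0.08 and 0.03 in W1, W3 and W4, and Psmc4 at -0.14 against 0.14, 0.16 and -0.04. Psmc3 had a range of 0.18 and Psmc6 of 0.11. W2 was the kidney farthest from the others in 4 of the 6 ATPase genes and in 0 of the 9 others of the cap. It was so in 2126 of the 8005 named genes, more than W1, W3 or W5 and fewer than W4 (2160).

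Psmc1, another ATPase, gave the only called probe among the 76 tested, and its 2 probes disagreed. On the called probe, the W1 arrays read 0.14, 0.55, 0.13 and 0.43 and the W2 arrays 0.25, 0.32, 0.04 and 0.32. Its W3 arrays read 0.03, 0.02, -0.14 and 0.30, and its W4 arrays -0.05, 0.42, 0.13 and 0.64. All but 2 of the 16 arrays lay on the positive side, and arrays with W5 in channel 1 read farther from 0 in W1, W2 and W4. Its orientation term was itself called, at -0.16 ± 0.04 (SE; adjusted p = 0.0180). Fitted values from W1 to W4 were 0.31, 0.23, 0.05 and 0.29 (SE 0.08), and W5 lay farthest from the others, with W3 next to it. Its range was 0.31, or 1.24-fold (limma, adjusted p = 0.0125, against a background of 4% of all probes). The test among W1 to W4 (adjusted p = 0.561) and that of W5 against its littermates (adjusted p = 0.149) were not passed. No single pair was called (lowest adjusted p = 0.0670, for W4 minus W5). Without an orientation term the adjusted p of this probe was 0.134, and without mouse W1 it was 0.126.

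The second Psmc1 probe, the one that stands for the gene, read -0.11, -0.60, -0.02 and 0.08 in W1. Its W2 arrays read 0.31, 0.15, 0.32 and 0.26, its W3 arrays 0.07, 0.27, -0.26 and 0.49, and its W4 arrays -0.10, 0.18, -0.04 and 0.50. W1 lay on the opposite side from the first probe, with a fitted value of -0.16 ± 0.12 (SE) against 0.31 ± 0.08 on the called probe. It had a range of 0.42, and it was not called (adjusted p = 0.354). Which of the 2 probes follows the Psmc1 transcript was not tested.

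**Figure D3:**
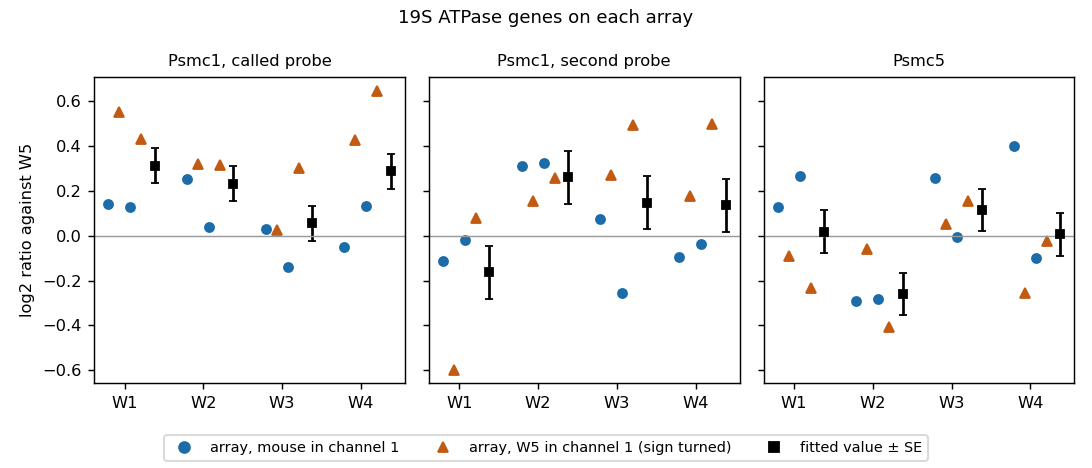
Log2 ratios against W5 (y axis) on each array of W1 to W4 (x axis) for both Psmc1 probes and Psmc5, drawn as circles with the mouse in channel 1 and triangles with W5 there, with fitted values ± SE as black squares. The fitted W1 value is 0.31 on the called Psmc1 probe and -0.16 on the second, and all 4 Psmc5 arrays of W2 lie below 0.

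Several of the remaining cap genes had some of the narrowest ranges on the array. Psmd13 and Psmd8, subunits of the cap's lid, had ranges of 0.06 each, and 0.874% and 1.02% of all named genes had smaller ones. Psmd14, the deubiquitinase of the cap, had a range of 0.13, Psmd6 0.15, Psmd2, a scaffold of the base, 0.11 and Psmd11 0.13. Psmd10 and Psmd5, which help assemble the base, had ranges of 0.10 and 0.26. The second Psmd5 probe had a range of 0.10. Psmd4, a ubiquitin receptor, lay at -0.06, -0.14, 0.08 and -0.08 in W1 to W4 (SE 0.08). The assembly chaperones Psmg1, Psmg2 and Psmg4 had ranges of 0.06 to 0.10. Psmf1, an inhibitor of the core in vitro, lay at 0.21 ± 0.08 (SE) in W2 against -0.08, -0.01 and -0.02 in W1, W3 and W4 (W2 minus W5, limma, adjusted p = 0.215). Its second probe lay at -0.18 ± 0.14 in W2, so that its probes also differ in sign there.

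Of the prefix-only genes, Psme3ip1 lay on the positive side in all 4 mice at 0.06, 0.20, 0.32 and 0.20 on its chosen probe (adjusted p = 0.172). Its other tested probe lay at 0.25, -0.07, -0.07 and 0.41, on the negative side in W2 and W3 (adjusted p = 0.430). Psmc3ip had a range of 0.21. The pseudogene Ube2d-ps had one of 0.14.

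The medians of core and cap genes differed between arrays of a mouse. On array 4 of W4 the median of the 15 core genes was 0.20 and that of the 15 cap genes 0.17, where all named genes had 0.01. On arrays 1 to 3 of W4 the core medians were -0.08, -0.06 and 0.00 and the cap medians -0.09, -0.15 and -0.04. Array 4 thus stood apart from the other 3 of W4 in both groups of genes, and it had the highest residual SD of the 16 arrays, 0.231. Without it the fitted W4 median was -0.04 for the core and -0.06 for the cap, against 0.01 for each with all 4 arrays. In W2 the core medians by array were -0.03, -0.08, -0.09 and 0.02, and in W3 they were 0.03, 0.11, -0.08 and 0.15, so that the arrays of W2 and W3 overlapped. By fitted values 14 of the 15 core genes had W2 below W3, with a median difference of -0.08. The same held for 8 of the 15 cap genes (53.3%), with a median difference of -0.05, and for 48.6% of all named genes. The core count was 10 of 15 without array 2 of W2 and between 10 and 13 as each array of W2 or W3 was left out. Genes on 1 array share its error, so such a count over genes is not a count of independent observations.

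**Figure D4:**
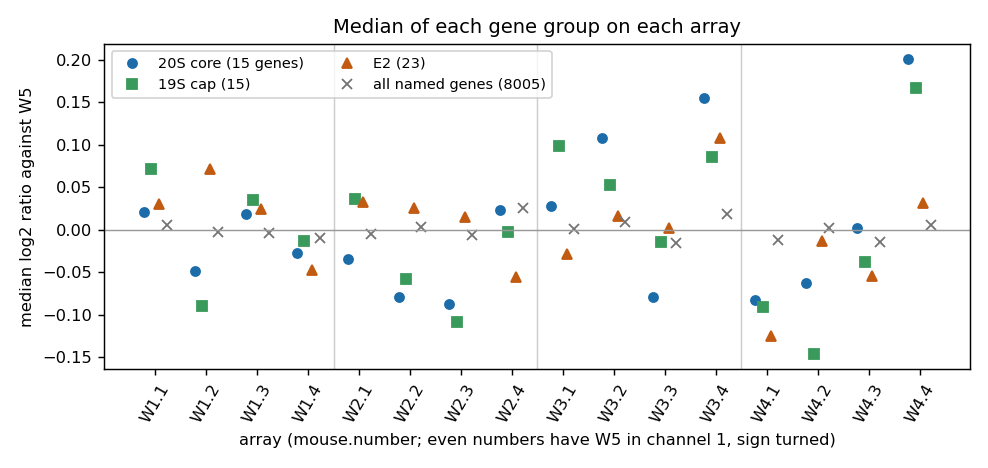
Median log2 ratio against W5 (y axis) of the core, cap and E2 genes and of all named genes on each of the 16 arrays (x axis, mouse and array number). Core and cap medians reach 0.20 and 0.17 on array 4 of W4, and lie on opposite sides of 0 on arrays 1 and 4 of W2 and array 3 of W4, while the medians of all named genes stay between -0.02 and 0.03.

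The E2 enzymes were described apart. Ube2g2, which works in the degradation of misfolded proteins at the endoplasmic reticulum, had the widest range of either group, 0.59 or 1.5-fold. Its arrays read -0.02, -0.09, -0.20 and -0.55 in W2, against -0.06, 0.34 and 0.96 in W4, where array 4 had no value. A single W4 array held most of this distance, and the other 2 reached only from -0.06 to 0.34. W2 minus W4 was -0.59 ± 0.20 (SE), with a 95% interval of -1.01 to -0.16, and was not called (limma, adjusted p = 0.295). Neither was the 5-kidney test passed (adjusted p = 0.391). Its arrays ranged from -0.23 to 0.35 in W1 and from -0.38 to 0.28 in W3.

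Ube2d3, a broadly acting E2 for many ligases, had the lowest unadjusted p of its group. It lay at 0.18 in W1 and at 0.17 in W2, against -0.10 in W3 and -0.07 in W4 (SE 0.07, and 0.08 for W2). Single arrays read 0.31, 0.23, 0.06 and 0.12 in W1 and 0.28, 0.14 and 0.09 in W2, where array 1 had no value. They read -0.09, -0.08, 0.03 and -0.24 in W3 and -0.20, -0.02, -0.04 and -0.03 in W4. All 7 values of W1 and W2 thus lay above all 8 of W3 and W4. The adjusted p was 0.248 in the 5-kidney test and 0.368 among W1 to W4, so the separation did not pass in either (limma). Its close relative Ube2d1 had a range of 0.13.

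Ube2c and Ube2s start and extend ubiquitin chains with the anaphase-promoting complex in mitosis. Ube2s lay at -0.10, 0.03, 0.14 and -0.24 in W1 to W4 (SE 0.10; adjusted p = 0.367) and Ube2c at -0.02, 0.13, -0.20 and -0.02 (SE 0.09 in W1; adjusted p = 0.484). The 2 partners did not share an order of kidneys. Of 21 measured cell cycle genes, 3 were called, where the background was 4.2%: Cdca8, Mcm7 and Ccnd1, with ranges of 0.88, 0.53 and 0.52. From W1 to W4, Cdca8 lay at 0.66, 0.64, 0.48 and -0.22, Mcm7 at -0.07, -0.45, -0.17 and 0.08 and Ccnd1 at -0.18, 0.08, -0.18 and -0.45. Neither Ube2c nor Ube2s had the order of any of the 3. Among the cell cycle genes that were not called, Aurka and Mcm3 had the signs and the order of Ube2s, and no other did. Aurka lay at -0.01, 0.01, 0.20 and -0.06 in W1 to W4 (SE 0.09) and Mcm3 at -0.01, 0.004, 0.11 and -0.29 (SE 0.14). The order of W1, W2 and W4 lay within the error of Aurka, and that of W1, W2 and W3 within the error of Mcm3. These values were all smaller than their SE. The part of dividing cells in these values was not tested.

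The E2 enzymes that carry other modifiers, Ube2f for Nedd8 and Ube2l6 for the interferon-induced Isg15, had ranges of 0.25 and 0.19. Ube2v1, a variant without the active-site cysteine, had one of 0.17, and its partner Ube2n, with which it builds chains used in signalling, one of 0.18. Ube2j1 and Ube2j2, anchored in the endoplasmic reticulum membrane, had ranges of 0.15 and 0.16. Ube2r2, which extends chains with cullin ligases, had one of 0.11 and Ube2k one of 0.11. Ube2o, a large enzyme that joins E2 and ligase activities, had a range of 0.22, Ube2w, which modifies protein amino termini, 0.20, Ube2q1 0.24, Ube2ql1 0.20 and Ube2u 0.24. None of these 13 genes passed the 5-kidney test, with adjusted p values from 0.475 to 0.945.

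For some members the ratio differed more with the channel than with the kidney. The orientation term of the fit is the part of a ratio that stays with the channel, whichever kidney is in it. It was called for 4 of 39 proteasome genes and 4 of 24 E2 genes, near the background of 13.7%, so these counts mark no trait of the 2 groups. No mouse difference of these genes was called. The orientation term rests on all 16 arrays and has a smaller SE than a mouse value (0.05 against 0.09 for Ube2b). The largest was that of Ube2b at -0.24 ± 0.05 (SE; limma, adjusted p = 0.00580), followed by Ube2l3 at -0.21 (adjusted p = 0.0126) and Ube2a at 0.21 (adjusted p = 0.00843). Ube2a and Ube2b are close homologues that act in DNA damage tolerance. The second Ube2a probe had an orientation term of opposite sign, -0.15 (adjusted p = 0.0203), so that its sign differed between 2 probes of 1 transcript. Among proteasome genes it was called for Psmd2 at 0.20, Psmd5 at -0.19, Psma7 at -0.19 and Psmd4 at 0.15. Ube2h had a term of -0.19.

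**Figure D5:**
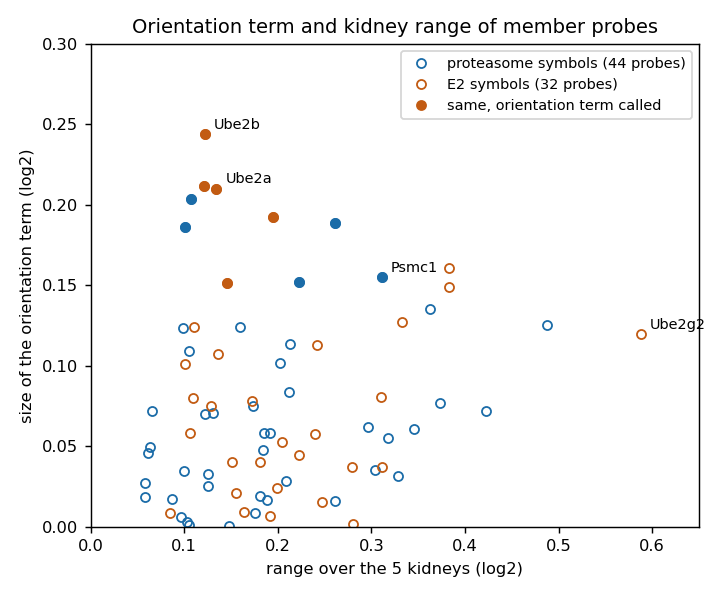
Size of the orientation term (y axis, log2) against the range over the 5 kidneys (x axis, log2) for each of the 76 member probes, filled where the term was called. Ube2b has the largest term, 0.24, with a range of 0.12, and Ube2g2 the widest range, 0.59, with a term of 0.12 that was not called.

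Genes with several probes allow a check within the array. Ube2l3, which works with ligases that form a thioester with ubiquitin, had 4 probes with ranges of 0.12, 0.28, 0.11 and 0.16. The 3 Ube2b probes had ranges of 0.12, 0.31 and 0.38, with residual SDs of 0.186, 0.307 and 0.233. The 2 wider probes were noisier than the first. Both Ube2a probes had narrow ranges, 0.13 and 0.15, and the 2 Ube2h probes 0.19 and 0.08. The 2 Ube2z probes, for an E2 charged by the alternative activating enzyme Uba6, had 0.10 and 0.31. None of these E2 probes was called.

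The rest of the pathway was read from lists of genes whose symbols were matched to the array, each against the background of 4.2%. No gene was called among 5 of ubiquitin and ubiquitin-like proteins, 3 activating enzymes, 30 ligases, 4 regulators of proteasome genes and 6 of the COP9 signalosome. Nfe2l1, one of those regulators, had a range of 0.40 on its chosen probe (adjusted p = 0.274) and 0.16 on the other. Of 27 deubiquitinases 1 was called, Usp2, also a clock-regulated gene, with a range of 0.31 (adjusted p = 0.0472). Of 9 proteasome partners and shuttles 1 was called, Zfand5, which binds the proteasome and stimulates it. Zfand5 had values of 0.29, 0.26, -0.07 and 0.38 from W1 to W4 (SE 0.07 in W1), a range of 0.46 (adjusted p = 0.00237). Of 9 heat shock genes 5 were called, among them Hspa1a with -1.08, -0.73, -0.73 and -1.38 in W1 to W4, the stress-inducible chaperone. The 63 proteasome and E2 genes measured on the same arrays had 0 called.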

How the data were processed

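Each deposited value is the log2 ratio between the channels of an array, which the authors made from mean intensities with background subtracted, scaled so that the median ratio of an array is 1, per the labels. Per the labels, 20 µg of total RNA was labelled with Cy3 or Cy5, hybridised at 42 °C for 18 to 20 hours and scanned on a GenePix 4000A with GenePix Pro 3.0. The log base was read from the values: 0.213% of them matched, to 2e-06, the log2 of a quotient of integers no larger than 12, against 0.0165% for natural log and 0.0261% for log10. The sources used here do not give the dye of each channel, the numerator or the filter behind empty cells.

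Signs were turned on the 8 arrays with W5 in channel 1. Limma 3.58.1 in R 4.3.3 fitted 4 mouse coefficients and an orientation term (lmFit, eBayes) to the 15715 probes with values on at least 3 arrays of each mouse. Two-sided moderated tests were Benjamini-Hochberg adjusted over all probes tested, with calls at an adjusted p under 0.05. For W5 against its littermates the 4 mouse means were tested against 0, without a spread for W5. Arrays of a mouse are repeat hybridisations, and their number limits the precision. The fit was tested on simulated arrays.

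Names came from the platform's annotation, and 84 of 84 member probes matched the gene table with 0 symbols changed. A gene with several probes was represented by the probe with most arrays, then the first identifier. Genes named in full are any called member, the 10 of widest range per group, the catalytic subunits and PA28. Other members and pathway genes are given by range or count. Single values outside that rule were chosen after their values were seen (Psma6, Psma7, Psmb2, Psmd8, Psmd13, the orientation terms, Nfe2l1). So were those of the uncalled genes Mx2, B2m, Igtp, Cd3d, Ptprc, Aurka and Mcm3 and both probes of Lyz2. Members and lists were chosen with earlier results of these data known, and the nuclear respiratory factor 1 motif and the promoters shown after motif matches were seen. Alternatives varied the orientation term, weights, scaling, filter, block, shrinkage, probes and arrays or mice included.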

Additional observations from a re-analysis of the deposited data

Results flagged for a closer look

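Single arrays stood apart from the other 3 of their mouse in 5 of 102 sets of 4 arrays of the genes named in full (Dixon's test at its 95% critical value). Chance alone flags about 5% of such sets, so this number is near what chance gives. Psmb7, the trypsin-like core subunit, read 0.367 on array 4 of W4, against -0.128 to -0.0723 on the other arrays of W4. This is the array on which the medians of the core and cap genes were also high. Psmb5 read -0.376 on array 2 of W1, against -0.0281 to 0.037 on the others. Among E2 enzymes, Ube2u read -0.761 on array 1 of W1, against -0.0315 to 0.118, and Ube2o read -0.122 on array 1 of W3, against 0.114 to 0.155. Ube2d3 read -0.196 on array 1 of W4, against -0.0395 to -0.0223, and all 4 W4 arrays lay on 1 side.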

How the results depend on the processing

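The counts of called proteasome and E2 genes were 0 as reported and in all 30 alternative settings of the 5-kidney test, all 30 of the W1 to W4 test and all 8 of the W5 test (limma). Of the fully named genes on their chosen probes, Psme3ip1 came nearest, with an adjusted p of 0.0726 without array 2 of W3, followed by Ube2g2 with 0.0735 without array 1 of W4. The probe of Psmc1 that was called kept its call in 26 of 28 alternative settings, its range running from 0.29 to 0.36. It lost it without the orientation term (range 0.31, adjusted p = 0.134) and without mouse W1 (range 0.29, adjusted p = 0.126); the cause was not tested. With the array number as a replicate block the gene counts were 0 as well. Same-numbered arrays of different mice had correlated deviations of 0.0863 to 0.335 (median 0.164). Those with another number in the same orientation had -0.0145 to 0.324 (median 0.112), with 24 pairs of each kind. These ranges overlapped, but 12 of 16 arrays correlated best with an array of their own number. Whether the numbers pair arrays was not tested further. Ranges of single genes moved with the arrays used: that of Ube2g2 ran from 0.22 to 0.86, that of Psmc5 from 0.11 to 0.47 and that of Psmb8 from 0.18 to 0.51. Core and cap medians were recomputed without each array after the data had been seen, and the fitted core median of W3 then ran from 0.03 to 0.13. Repeat arrays of 4 mice limit the precision. The bounds given for pair differences state how much difference the arrays leave room for and are not limits of detection.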

Other observations

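Of the 68 genes, 5 were not tested because their probe had too few values. Psmb11, the thymus-specific catalytic subunit, had a value on 0 of 16 arrays, and Ube2d2a on 3. Psmd1 and Psmd7 had values on 11 and 13 arrays. Psme4 encodes the activator PA200. Its probe had values on 11 arrays and read 0.51, 0.45, 0.32 and 0.48 in W1 and -0.61, -0.35 and 0.08 in W2. The W1 arrays did not overlap those of W2, but 2 arrays of W3 and 2 of W4 are too few for the filter used. With at least 2 arrays per mouse required, its range was 0.71, the widest of the proteasome symbols in that setting, and it was not called (limma, adjusted p = 0.226). Psmd1 and Psmd7 had ranges of 0.37 and 0.35 there and were not called (adjusted p = 0.692 and 0.455).

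A probe listed with both Tap1 and Psmb9, neighbours in the MHC, names no single gene here. Its W1 arrays read -0.04, -0.27, -0.21 and -0.01, its W2 arrays 0.06, 0.08, 0.24 and 0.19, its W3 arrays 0.08, -0.16, 0.02 and 0.09, and its W4 arrays 0.33, 0.25, 0.16 and 0.27. W1 lay wholly on the negative side and W2 and W4 on the positive side, and the range of 0.39 was not called (limma, adjusted p = 0.112). The Tap1 probe that was called had another order, with W4 at -0.17 and the other mice at 0.42 to 0.50. A probe listed with Psmd2 and Gm5422 had a range of 0.14 (adjusted p = 0.676).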
